A study of Mus musculus with 6 samples.

Results

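Mature microRNAs of 4 hairpin families with known roles in metabolism, mmu-miR-22-3p, mmu-miR-22-5p, mmu-miR-103-3p, mmu-miR-107-3p and mmu-miR-378a-3p, were followed across mouse oviducts and tumors. They were chosen by name (the prefix mmu, for mouse, is left out from here on), and all 5 were found among 1915 mouse names in the count table, of which 919 had a count in at least 1 library. The samples were 3 oviducts of genotype Dicer1+/D1693N and 3 primary tumors, of source tissue oviduct, of genotype Dicer1ko/D1693N. Both groups therefore carried the D1693N allele, beside a normal allele in the oviducts and a knocked-out allele in the tumors. The sample descriptions call the tumors ADT tumors. No treatment was given. The sources used here give neither age nor strain nor the driver of the knockout. They also do not tie the samples to separate animals, so p-values reflect only the spread among these samples, part of which may be technical. Genotype and tumor state changed together, so they cannot be told apart.

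MicroRNAs are short RNAs that guide repression of messenger RNAs, chiefly through the seed at bases 2 to 8. Cutting of a hairpin by Dicer yields 2 strands, named 5p and 3p. The RNase IIIb domain, which D1693N changes, frees the 5p strand, and RNase IIIa frees the 3p strand. The microRNAs described here are found in many tissues, and the 3p strand is the known guide of each hairpin. miR-103 and miR-107 lie in introns of pantothenate kinase genes, which act in coenzyme A synthesis, and are known as regulators of insulin sensitivity. miR-378a lies in an intron of Ppargc1b, a coactivator of mitochondrial genes, and is known for effects on energy use and fat storage. miR-22 is known from heart, fat and liver metabolism and from growth control.

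The sequences of the miR-22, miR-103 and miR-107 strands are shown because the 2 last names are hard to tell apart. They came from RefSeq (GRCm38.p6), in which 4 of the 5 names matched an entry. Capitals mark the seed.
miR-22-3p: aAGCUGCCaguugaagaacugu
miR-22-5p: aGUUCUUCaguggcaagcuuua
miR-103-3p: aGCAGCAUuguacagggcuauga
miR-107-3p: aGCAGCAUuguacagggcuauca
miR-103-3p and miR-107-3p were identical over their first 21 of 23 bases and differed by G22C (miR-103-3p first, positions counted from the 5′ end). A read that stops before base 22 would match both names, and how such reads were assigned is unknown here. Counts of both names, and the ratio between them, are therefore uncertain. The seed GCAGCAU was shared by these 2 names alone among 1623 matched mouse names. The seeds of miR-22-3p and of miR-22-5p were each held by 1 name only.

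The hairpins are shown for the place of each strand and for how alike the miR-103 and miR-107 hairpins are. Capitals here mark the 5p strand, then the 3p strand.
Mir22: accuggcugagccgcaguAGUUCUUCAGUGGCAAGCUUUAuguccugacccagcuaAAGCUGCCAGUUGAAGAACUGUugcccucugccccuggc
Mir103-1: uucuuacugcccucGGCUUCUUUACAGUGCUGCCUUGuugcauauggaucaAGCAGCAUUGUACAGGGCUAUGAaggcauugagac
Mir103-2: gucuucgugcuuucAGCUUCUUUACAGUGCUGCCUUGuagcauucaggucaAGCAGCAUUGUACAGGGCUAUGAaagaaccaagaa
Mir107: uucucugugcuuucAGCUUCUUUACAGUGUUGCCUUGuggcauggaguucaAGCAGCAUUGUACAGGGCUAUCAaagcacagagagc
Mir22 lies at chr11:75463716-75463810 (plus strand) and overlaps an exon of the noncoding host gene Mir22hg and an annotated exon of Tlcd2. Mir103-1 lies at chr11:35782396-35782481 (plus strand) in an intron of Pank3. Mir103-2 lies at chr2:131288052-131288137 (plus strand) in an intron of Pank2. Mir107 lies at chr19:34820687-34820773 (minus strand) in an intron of Pank1. Both Mir103 copies give the same 3p strand, so counts of miR-103-3p cannot be split between Pank2 and Pank3.

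Depth ranged from 297039 to 580390 mouse microRNA counts for the oviducts and from 154002 to 272167 for the tumors. One strand, miR-143-3p, took 44.1% to 47.2% of the oviduct counts and 60.9%, 27.7% and 13.9% of those of tumors 1, 2 and 3. Levels are therefore given as CPM, a count relative to library size, scaled with trimmed mean of M-values (TMM) factors, which reduce the weight of such a strand. Smooth muscle and multiciliated microRNAs mark the oviduct wall and lining. Summed over the multiciliated list the level was 14867 to 21618 CPM in the oviducts and 422 to 1209 CPM in the tumors. Of its 5 tested members 3 were called lower by the test described below. That test called 25.6% of all tested names lower and 26.9% higher. The smooth muscle list summed to 489628 to 557783 CPM against 94621 to 835405 CPM, with 2 of 3 lower. Those 2 were the strands of the miR-145a hairpin, while nearly all of the sum was miR-143-3p, which was not called. The endothelium list summed to 7146 to 9548 CPM against 15198 to 20196 CPM, with 2 of 2 higher. These are the 2 strands of 1 hairpin, miR-126a, and so not separate markers. The part of these cell types in the results below was not tested. In bulk tissue fewer cells and less RNA per cell cannot be told apart. The multiciliated and smooth muscle lists also hold 5p strands, the side that D1693N touches. Pooled miR-34c-5p counts were 17291 in the oviducts and 168 in the tumors, beside 385 and 123 of miR-34c-3p. The difference in log2 5p:3p ratio (tumors minus oviducts) was -5.82 for miR-34c and -2.91 for miR-145a. The part of strand loss in these sums was not tested. Of the epithelium list 1 of 5 tested names was called lower, of the leukocyte list 0 of 5 were called, and of the red cell list 1 of 2 was higher. The liver marker miR-122-5p had 0 counts in every library.

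None of the 5 microRNAs was called different between tumors and oviducts. edgeR's quasi-likelihood test was run over all 227 microRNAs that passed a low-count filter, with adjusted p under 0.05 as the threshold. It called 119 of the 227, or 52.4% (26.9% higher and 25.6% lower in the tumors), and called 0 of the 4 members that passed the filter. Of the 110 tested 3p names 51.8% were called, 41.8% as higher and 10% as lower in the tumors. At an unadjusted p under 0.05 the number of members was also 0, beside 137 of the 227 names, and DESeq2 called 0 of the 4 and 128 of the 227. The CPM ranges of the 2 groups overlapped for all 5 members, whereas 60.4% of tested names had ranges that did not overlap. miR-22-5p was too rare to be tested.

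**Figure D1:**
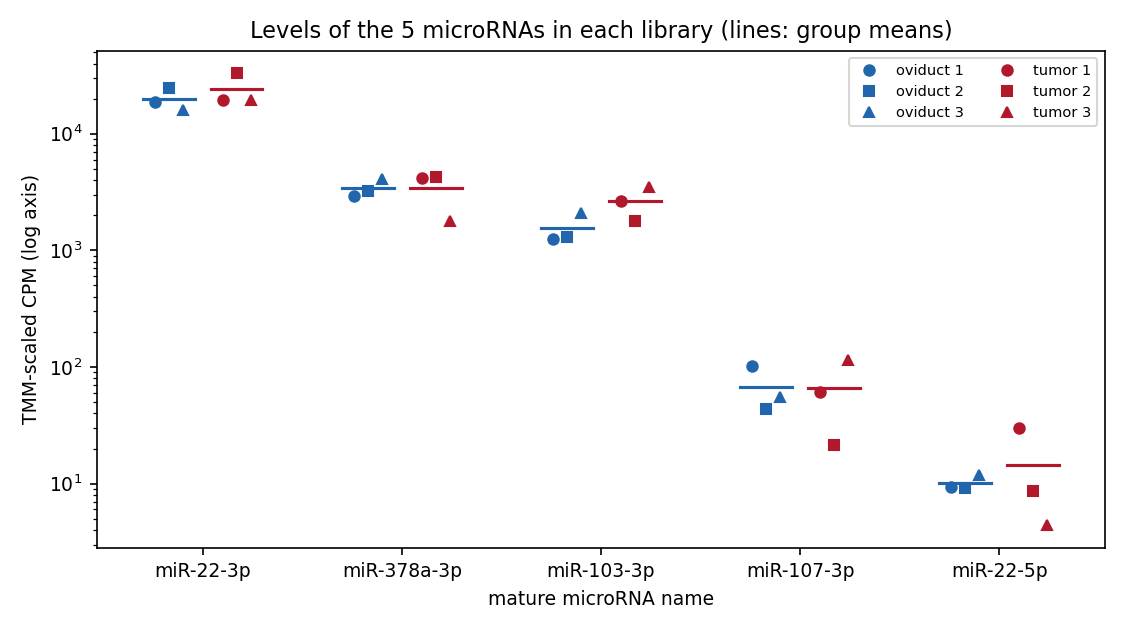
TMM-scaled CPM (log axis) of the 5 microRNAs in each of 3 oviducts (blue) and 3 tumors (red), with lines at the group means. The oviduct and tumor points overlap for every microRNA, and miR-22-3p stands highest, between 16029 and 32938 CPM.

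miR-22-3p was among the most abundant microRNAs of these tissues, at rank 5 of 227 by mean CPM. It had 18765, 24643 and 16029 CPM in oviducts 1, 2 and 3, and 19579, 32938 and 19519 CPM in tumors 1, 2 and 3. Tumors 1 and 3 lay inside the oviduct range, and tumor 2 lay above it. The means were 19812 ± 4401 CPM in the oviducts and 24012 ± 7730 CPM in the tumors (SD, n = 3 each). The log2 fold change (tumor over oviduct) was 0.28 (SE 0.31, 95% interval -0.42 to 0.97, edgeR adjusted p = 0.470). As a fold this interval runs from 0.747 to 1.97, so changes of a size within it could not be told from none. Over all 6 libraries the SD of its log2 CPM was 0.37, and 16 of the 227 had a smaller one, against a median of 0.94. That SD also takes in the difference between the groups. Within the oviducts it was 0.31 (median 0.34), with 103 names smaller, and within the tumors 0.43 (median 0.57), with 77 smaller.

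miR-378a-3p, the guide of the Ppargc1b intron, was next in level, at rank 29. Its values were 2912, 3246 and 4064 CPM in oviducts 1, 2 and 3, and 4149, 4280 and 1780 CPM in tumors 1, 2 and 3. Tumors 1 and 2 were above every oviduct, and tumor 3 was below every oviduct. The means were almost equal, 3407 ± 592 and 3403 ± 1407 CPM (SD, n = 3 each), with a log2 fold change of -0.0015 (SE 0.39, 95% interval -0.86 to 0.86, edgeR adjusted p = 0.997). That estimate averaged tumors lying on opposite sides of the oviducts. Taken singly against the oviduct mean, the log2 differences were 0.30, 0.34 and -0.92 in tumors 1, 2 and 3. Without tumor 3 the log2 fold change was 0.20, and without tumor 1 it was -0.48, neither being called. Its SD of log2 CPM within the tumors was 0.72, above the median of 0.57 for tested names.

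miR-103-3p came nearest to a call. It had 1260, 1291 and 2095 CPM in oviducts 1, 2 and 3, and 2654, 1790 and 3486 CPM in tumors 1, 2 and 3. Tumors 1 and 3 were above all oviducts, while tumor 2 lay below oviduct 3. The means were 1548 ± 474 and 2643 ± 848 CPM (SD, n = 3 each), and the log2 fold change was 0.77 (SE 0.38, 95% interval -0.06 to 1.61, edgeR adjusted p = 0.106). This size lay close to the median of the tested 3p names, 0.89, of which 50 of 110 had a lower value. The call appeared without tumor 2 (log2 1.05, adjusted p = 0.0429) and when names without an arm were left out (log2 1.01, adjusted p = 0.0458). With TMM factors from 3p names alone the value turned to -0.11 (adjusted p = 0.779).

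miR-107-3p, the near-copy from the Pank1 intron, was far less counted, at rank 192. Its counts were 33, 24 and 14 in oviducts 1, 2 and 3, and 12, 5 and 26 in tumors 1, 2 and 3. On the CPM scale these were 103, 43.8 and 55.3, and 60.4, 21.5 and 114. The tumors thus held both the lowest and the highest level. The means were 67.3 ± 31.3 and 65.4 ± 46.6 CPM (SD, n = 3 each), with a log2 fold change of -0.03 (SE 0.64, 95% interval -1.45 to 1.38, edgeR adjusted p = 0.980). Without tumor 3 the log2 fold change was -0.80, and without tumor 2 it was 0.45, neither being called. As folds the full interval ran from 0.367 to 2.60, so this microRNA was measured with much less precision than the other 3.

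**Figure D2:**
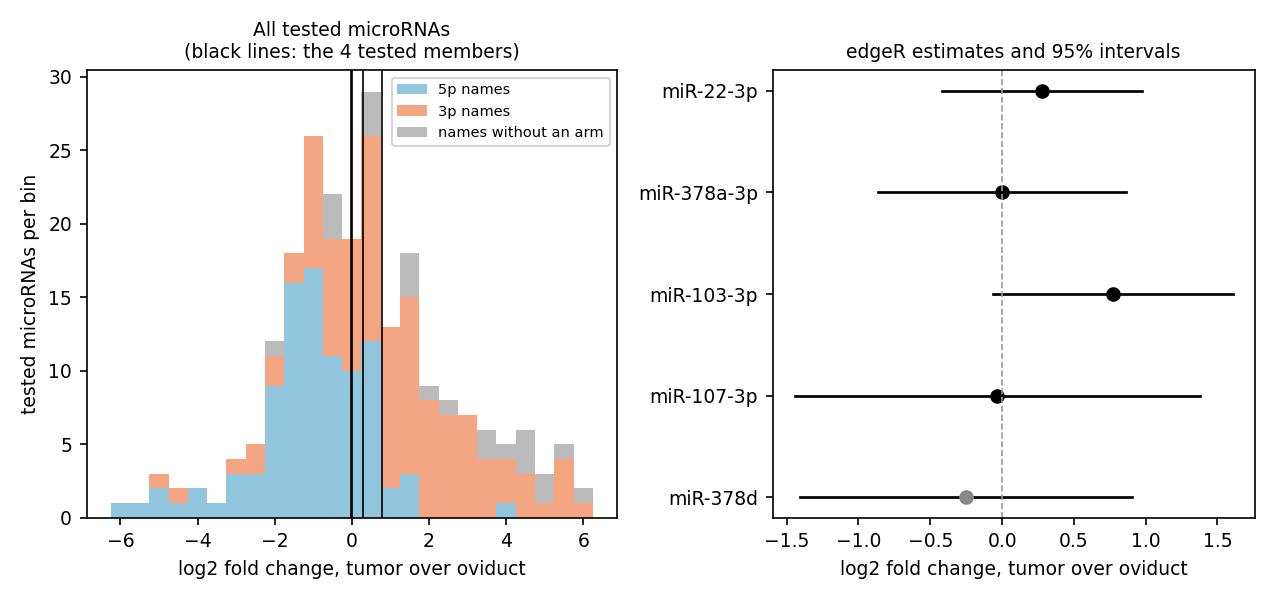
Left, number of tested microRNAs per bin of log2 fold change (tumor over oviduct), stacked by arm, with black lines at the 4 tested members. Right, edgeR log2 fold changes (points) with 95% intervals (bars) of those 4 and of miR-378d, each interval covering 0.

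In order of level the microRNAs ran miR-22-3p, miR-378a-3p, miR-103-3p, miR-107-3p and miR-22-5p in the oviducts. This order held in each of the 3 oviducts and in tumors 1 and 2. In tumor 3 miR-103-3p exceeded miR-378a-3p, at 793 against 405 counts. The ratio of miR-103-3p to miR-378a-3p, which needs no scaling between libraries, was 0.433, 0.398 and 0.516 in the oviducts, against 0.640, 0.418 and 1.96 in the tumors. The groups overlapped, and the difference of mean log2 ratios was 0.85 (n = 3 each, two-sided exact permutation p = 0.3). Tumor 3 lay farthest from the oviducts in this ratio, tumor 1 also lay above them, and tumor 2 lay inside their range. Without tumor 3 the difference was 0.21.

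The other ratios between members likewise overlapped between the groups. All 10 pairs were compared, and the adjusted p was 1 for each (exact permutation test, smallest possible raw p 0.1). For miR-22-3p to miR-103-3p the ratio was 14.9, 19.1 and 7.65 in the oviducts, against 7.38, 18.4 and 5.60 in the tumors (log2 difference -0.51, n = 3 each, exact p = 0.4). For miR-22-3p to miR-378a-3p it was 6.44, 7.59 and 3.94, and 4.72, 7.70 and 10.96 (log2 difference 0.35, exact p = 0.4). With 1 library left out these differences ran from -1.01 (without tumor 2) to -0.15 (without tumor 3), and from 0.06 (without tumor 3) to 0.67 (without tumor 1). The ratios thus varied within each group as well as between them. The largest ratio of any 2 libraries was 2.05 for miR-22-3p, 2.40 for miR-378a-3p, 2.77 for miR-103-3p and 5.32 for miR-107-3p on the CPM scale.

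As shares of all mouse counts the 4 3p strands together took 1.97%, 2.76% and 1.89% in oviducts 1, 2 and 3, and 1.93%, 5.15% and 3.68% in tumors 1, 2 and 3. The difference of means was 1.38 percentage points (n = 3 each, exact permutation p = 0.3), 0.597 without tumor 2 and 2.21 without tumor 1. Tumors 2 and 3 lay above the oviducts, and these were the tumors with a low share of miR-143-3p. With the miR-143 hairpin left out of the total, the 4 strands took 3.52%, 5.09% and 3.59% in the oviducts. In tumors 1, 2 and 3 they then took 4.94%, 7.12% and 4.27%, so that only tumor 2 lay above every oviduct. The difference of means stayed at 1.38 percentage points (exact permutation p = 0.3). For miR-103-3p the shares were 0.108%, 0.122% and 0.178% in the oviducts, against 0.194%, 0.236% and 0.515% in the tumors, without overlap (n = 3 each, exact p = 0.1, the smallest possible, adjusted p = 0.6 over 6 shares). Lack of overlap in shares was not counted over all names, whose median log2 fold change was 0.65 with library totals alone. When counts of the miR-143 hairpin were left out of the total, the shares of miR-103-3p overlapped, at 0.192%, 0.225% and 0.338% against 0.496%, 0.327% and 0.598% (exact p = 0.2). The share of miR-378a-3p also overlapped, at 0.249%, 0.306% and 0.346% against 0.303%, 0.565% and 0.263% (n = 3 each, exact p = 0.7).

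The scaling moved every member by a similar amount, because it moved all microRNAs. Over all tested names the median change was 0.20 on the log2 scale in the TMM scaling, 0.65 when library totals were used alone, and -0.73 when TMM factors came from 3p names alone. For miR-22-3p the log2 fold change was 0.72 with library totals and -0.60 with 3p factors. For miR-107-3p these values were 0.43 and -0.998, and for miR-378a-3p 0.33 and -0.82. Relative to the median of all names, miR-22-3p stood between 0.05 and 0.13 above it in the 5 scalings, and miR-103-3p between 0.56 and 0.62 above it. miR-107-3p stood between -0.27 and -0.20 from it and miR-378a-3p between -0.32 and -0.08. In none of these 5 scalings did a member pass the adjusted threshold. The sign of each of the 4 values changed between scalings.

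**Figure D3:**
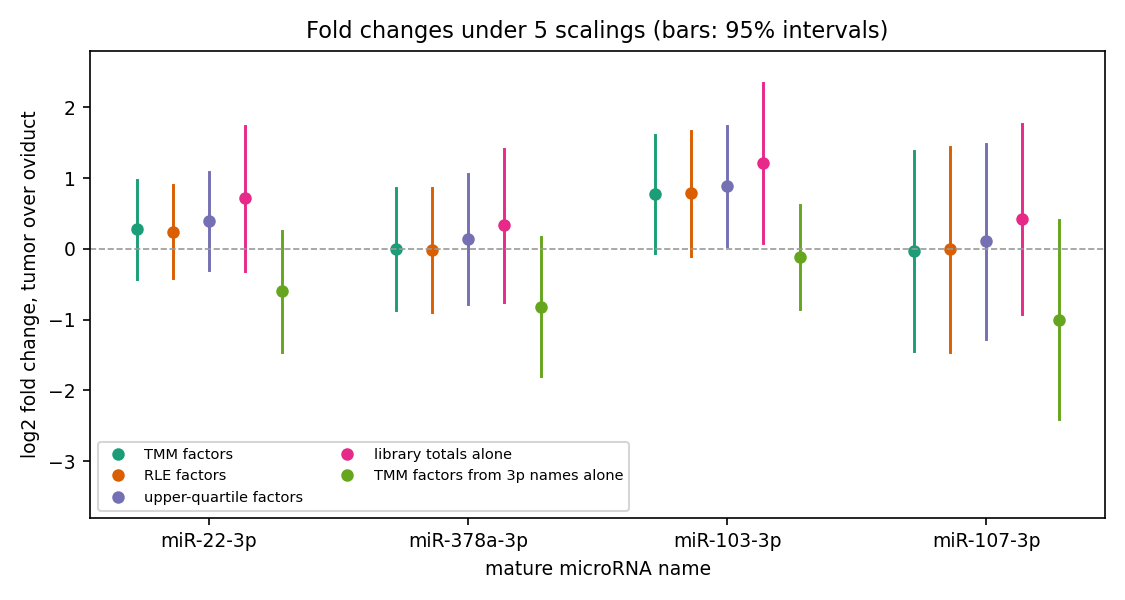
Log2 fold change (tumor over oviduct) of the 4 tested members under 5 scalings of the libraries, with 95% intervals as bars. Library totals alone give the highest values and TMM factors from 3p names alone the lowest for each member.

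The strand balance of these hairpins was the other question, since D1693N touches the cut on the 5p side. The hairpins were almost wholly 3p in both groups. miR-22-5p had 3, 5 and 3 counts in oviducts 1, 2 and 3, beside 6018, 13500 and 4055 of the 3p strand. In tumors 1, 2 and 3 it had 6, 2 and 1 counts beside 3888, 7672 and 4440. Pooled, the 5p strand took 0.0466% of the hairpin's counts in the oviducts (exact binomial 95% interval 0.0233% to 0.0834%) and 0.0562% in the tumors (0.0257% to 0.107%). Tumor 1 had the highest 5p share, 0.154%, and tumor 3 the lowest, 0.0225%. The log2 5p:3p ratio differed by -0.05 (SE 0.75, 95% interval -1.71 to 1.61, limma adjusted p = 0.954).

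miR-378a-5p, the other strand of miR-378a, had 7, 8 and 12 counts in the oviducts, against 3, 5 and 1 in the tumors. Its share of the hairpin was 0.717% pooled over the oviducts (0.473% to 1.04%) and 0.403% over the tumors (0.184% to 0.763%). Single libraries overlapped, since tumor 2 at 0.499% lay above oviduct 2 at 0.448%. The log2 ratio differed by -0.81 (SE 0.60, 95% interval -2.15 to 0.53, limma adjusted p = 0.293). It was -0.041 with a pseudocount of 5 (limma adjusted p = 0.95), and between -1.16 and -0.49 with 1 library left out, not being called in any of these fits. The ratio of pooled odds was 0.560 (exact 95% interval 0.231 to 1.23), which leaves out the spread between libraries.

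For miR-103 and miR-107 the 5p strands were at or near 0. miR-103-1-5p and miR-103-2-5p had 0 counts in every library, while the 3p strand had 1641 over the oviducts and 1737 over the tumors. Taken as 3 counts, the limit that a count of 0 allows was a share of 0.183% for the oviducts and 0.173% for the tumors, and the exact binomial upper bounds were 0.225% and 0.212%. miR-107-5p had 1 count, in tumor 1, beside 114 3p counts over all libraries. Ratios for these hairpins rest on the pseudocount, so no change of strand could have been seen in the direction of less 5p.

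Over all 142 hairpins tested the ratio was called for 51.4%, and 47.2% were called lower in the tumors, with a median log2 change of -1.53. Of 45 hairpins whose 5p share was at most 5% in the oviducts, a group that holds miR-22, miR-103 and miR-378a, 2 were called lower and 5 higher, with a median of -0.05. That group was set by the oviduct values of the same ratio and gets no test. Its 5 higher calls rest on few 5p counts. Pooled 5p, oviducts then tumors, was 0 and 0 for miR-375, whose 3p strand went from 1696 to 36. It was 1 and 0 for miR-92b (3p 7184 to 133) and 0 and 1 for miR-328. It was 1 and 3 for miR-133a, and 0 and 12 for miR-320. With 5p near 0 the ratio rests on the pseudocount and moves with the 3p strand. The higher calls thus do not establish a gain of 5p. That of miR-320 rests on 12 pooled tumor counts, in a group chosen for a low 5p share in the oviducts. The median does not show an unchanged balance. The limma intervals of miR-22 and miR-378a both hold the median of all hairpins, -1.53, so at these 5p counts a change of that size was not distinguishable from none.

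**Figure D4:**
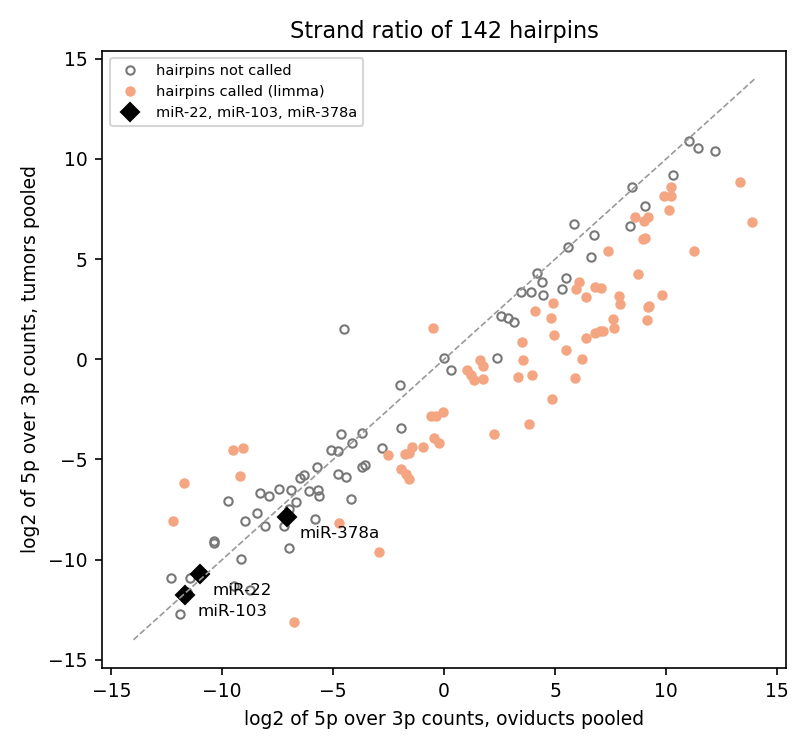
Log2 of 5p over 3p counts (each plus 0.5) in the pooled tumors against the pooled oviducts for 142 hairpins, with the dashed line at equality. miR-22, miR-103 and miR-378a (diamonds) sit at the 3p end, close to the line, while most hairpins with more 5p counts lie below it.

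Near-copies were counted beside 2 of the members. miR-378d, another name of the miR-378 family, had 44, 77 and 56 counts in the oviducts, against 28, 47 and 17 in the tumors. It took a narrow share of the counts summed over miR-378d and miR-378a-3p, 4.50%, 4.15% and 5.17% in oviducts 1, 2 and 3, and 3.29%, 4.50% and 4.03% in tumors 1, 2 and 3. The exact binomial intervals of these 6 shares all overlap. How reads that match both names were assigned is unknown here, so these counts may not be separate measurements. miR-378d was not called (log2 -0.25, SE 0.52, edgeR adjusted p = 0.691), and miR-378b and miR-378c had 6 counts and 1 count in all.

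The share of miR-107-3p in the sum of miR-107-3p and miR-103-3p was less even. It was 7.55%, 3.28% and 2.57% in oviducts 1, 2 and 3, and 2.23%, 1.18% and 3.17% in tumors 1, 2 and 3. Oviduct 1 stood apart, its exact interval of 5.25% to 10.4% lying above those of the other 5 libraries. The log2 ratio of miR-103-3p to miR-107-3p differed by 1.01 between the groups (n = 3 each, exact p = 0.2), and without oviduct 1 the difference was 0.53. Summing the pair into 1 row gave a log2 fold change of 0.75 (edgeR adjusted p = 0.118), near that of miR-103-3p alone.

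**Figure D5:**
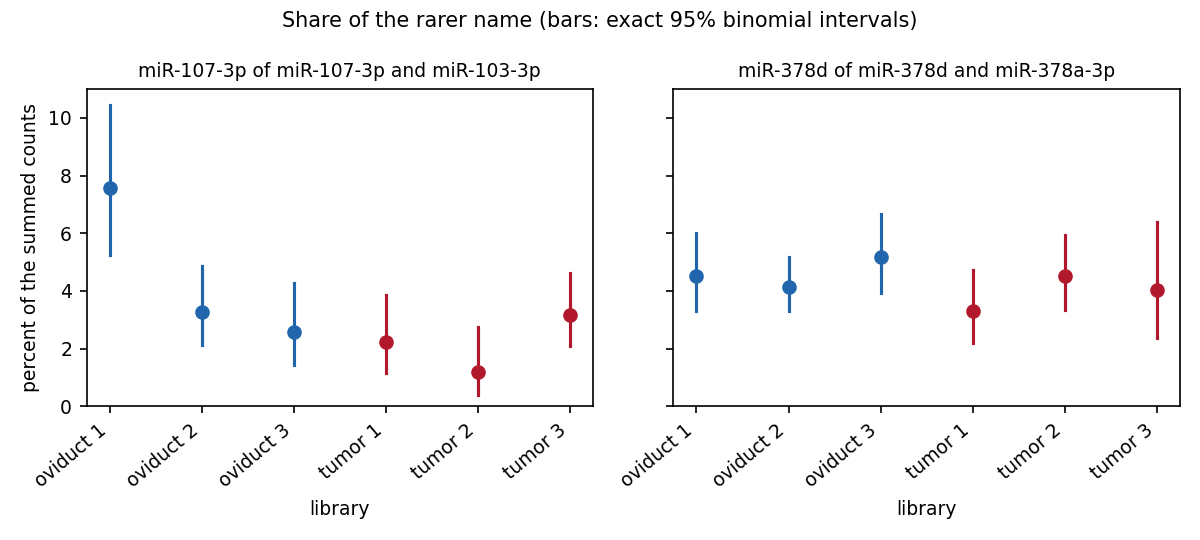
Share of the rarer name in the summed counts of 2 near-copies in each library, with exact 95% binomial intervals as bars (counting error only). The miR-107-3p share is highest in oviduct 1, at 7.55%, while the miR-378d share stays between 3.29% and 5.17%.

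miR-103-3p and miR-107-3p hold the letters AGCAGCA at their start, 1 base earlier than the miR-15 and miR-16 group, known as brakes on the cell cycle. These letters lay within bases 1 to 8 of 12 of 1623 mouse names. They are shown for miR-16-5p, the most abundant of the group, with the seed in capitals.
miR-16-5p: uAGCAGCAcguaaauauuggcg
Of 8 listed relatives 7 were in the table and 6 were tested. One of these, miR-497a-5p, fell, from 509 ± 56.2 CPM in the oviducts to 104 ± 25.7 CPM (SD; log2 -2.29 with an SE of 0.37, n = 3 each, edgeR adjusted p = 0.000708), 0 rose and 5 were not called. The 5 include miR-16-5p (log2 0.73, SE 0.41), miR-195a-5p (log2 -0.71, SE 0.36) and miR-322-5p (log2 0.21, SE 0.38). miR-195a-5p was called lower without tumor 2 (log2 -1.03), with TMM factors from 3p names alone and with a minimum mean of 10 CPM, and the number lower was then 2. These relatives are 5p strands, unlike miR-103-3p and miR-107-3p. The median log2 fold change of the 6 was -0.01, beside 0.20 for all tested names, of which 25.6% were called lower and 26.9% higher.

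Among 18 other microRNAs of lipid and glucose metabolism 10 were tested, of which 3 fell, 0 rose and 7 were not called, beside 25.6% lower and 26.9% higher over all tested names. Over the alternatives the number lower ran from 1 to 5 and the number higher from 0 to 2, the 2 being with library totals alone. The falls were those of miR-375-3p, known from insulin secretion (log2 -4.71, SE 0.72), miR-30c-5p, known from lipoprotein assembly (log2 -1.60, SE 0.33), and miR-148a-3p, known from cholesterol uptake (log2 -1.08, SE 0.28). The calls of miR-30c-5p and miR-148a-3p were lost with library totals alone (edgeR adjusted p = 0.110 and 0.273). The abundant miR-27b-3p was not called, at 22387 ± 2149 and 23326 ± 8879 CPM (n = 3 each, log2 0.06, SE 0.31), nor were miR-143-3p (log2 -0.45, SE 0.67) and miR-29a-3p (log2 -0.97, SE 0.40). miR-143-3p was called without tumor 1 (log2 -2.07). miR-29a-3p was called without oviduct 3 (log2 -1.57) or tumor 1 (log2 -1.37), by DESeq2, with the replicate block, with TMM factors from 3p names alone and under both other filters. Leaving out tumor 1 gave 5 lower in this list. The median of the 10 was -0.25. The sterol regulator miR-33-5p had 3 counts in all, and miR-802-5p had 0.

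A list of 16 other broadly expressed 3p guides gave 2 higher, 1 lower and 13 not called, beside 41.8% higher and 10% lower over all tested 3p names, with a median log2 fold change of 0.35. The higher ones were miR-25-3p (log2 1.74, SE 0.36) and miR-152-3p (log2 1.28, SE 0.34), and the lower one was miR-148a-3p. The call of miR-152-3p was lost without any 1 of the 3 oviducts, with TMM factors from 3p names alone (log2 0.38, edgeR adjusted p = 0.328), with no low-count filter and with a minimum mean of 10 CPM. The most abundant that were not called were miR-27b-3p, miR-92a-3p (log2 0.20, SE 0.29) and miR-101a-3p (log2 -0.67, SE 0.52). Without tumor 2 this list gave 5 higher, without any 1 oviduct it gave 1, with names without an arm left out it gave 6, and with TMM factors from 3p names alone it gave 7 lower.

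miR-103-3p is often used as a reference in quantitative PCR of microRNAs. Of 9 other microRNAs used that way, 1 was called higher, 2 lower and 6 were not called, beside 26.9% higher and 25.6% lower over all tested names. The median log2 fold change was -1.04 over tested 5p names and 0.89 over tested 3p names. The higher one was miR-25-3p. The lower ones were miR-26a-5p, from 32329 ± 9528 CPM in the oviducts to 10626 ± 1289 CPM (SD; log2 -1.61 with an SE of 0.31, n = 3 each, edgeR adjusted p = 0.00162), and miR-423-5p (log2 -1.72, SE 0.49). Their calls were lost with library totals alone (edgeR adjusted p = 0.0638 and 0.133), and that of miR-423-5p also without oviduct 2. miR-191-5p (log2 -0.92, SE 0.37) and let-7a-5p (log2 -0.69, SE 0.30) were not called. miR-191-5p was called without oviduct 3, tumor 1 or tumor 2, and let-7a-5p without oviduct 1 or tumor 1. Both were also called with TMM factors from 3p names alone, with no low-count filter and with a minimum mean of 10 CPM, and miR-191-5p by DESeq2, with RLE factors and with the replicate block. Leaving out tumor 1 gave 4 lower in this list and leaving out oviduct 2 gave 1.

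Nearness of pattern was measured as the root mean square difference of log2 CPM over the 6 libraries, each name centred on its own mean, among names of at least 100 CPM. It is a description, since all values share the libraries and their scaling. Nearest to miR-22-3p were miR-31-5p (0.13), miR-27a-3p (0.15) and miR-16-5p (0.31), beside a median of 0.93 over 172 names. miR-31-5p had 349, 394 and 285 CPM in the oviducts, against 378, 644 and 418 CPM in the tumors, with tumor 2 highest as for miR-22-3p. Nearest to miR-103-3p were miR-23b-3p (0.10), miR-101b-3p (0.35) and miR-92a-3p (0.35). miR-23b-3p had 1210, 1230 and 1814 CPM in the oviducts, against 2417, 1829 and 2853 CPM in the tumors, with oviduct 3 and tumor 3 the highest of their groups as for miR-103-3p. Nearest to miR-378a-3p were miR-378d (0.21), miR-1839-5p (0.38) and miR-195a-5p (0.42), and nearest to miR-107-3p were miR-708-3p (0.50), miR-135a-5p (0.57) and miR-24-3p (0.58). Between the members the distance was 0.48 for miR-22-3p and miR-378a-3p, 0.70 for miR-22-3p and miR-103-3p, 0.80 for miR-103-3p and miR-378a-3p, 0.82 for miR-103-3p and miR-107-3p, 1.07 for miR-22-3p and miR-107-3p, and 1.16 for miR-107-3p and miR-378a-3p.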

How the data were processed

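Small RNA libraries were made by the submitters from total RNA (miRNeasy kit) with an Illumina TruSeq small RNA kit, per the labels' protocols. Adapters were trimmed with cutadapt, with no version stated, per the submitters' processing notes. The submitters deposited unnormalized whole-number counts per mature microRNA name, taken from BAM files of trimmed reads per the file headers. The aligner, the counting program, the microRNA reference, the build and the handling of reads that match several names: not given in the sources used here. GEO describes 5 oviducts and 4 tumors, and 3 of each were used.

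The 67 names of other species were left out. edgeR 4.0.16 (R 4.3.3) was used for single names (filterByExpr with a minimum count of 10, TMM factors, robust quasi-likelihood test) over 227 names, which held at least 99.3% of each library. Strand ratios, log2 of (5p count + 0.5) to (3p count + 0.5), were compared with limma 3.58.1 where a hairpin averaged 20 counts or more per library, copies pooled. The hairpin of miR-107 was below that minimum. All tests were two-sided, p-values are Benjamini-Hochberg adjusted over all names or hairpins, and ratios and shares of members were compared by exact permutation tests over the 6 samples. Single shares carry exact Clopper-Pearson 95% intervals. Intervals and floors (3 counts, between 5.48 and 15.1 CPM) cover counting error only: without molecular identifiers, PCR copies are counted as reads. No 2 libraries of a group were a repeated deposit (chi-square per degree of freedom of at least 30.7).

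The members and lists were chosen with earlier results of these data known. Named microRNAs were the members, the other strands of their hairpins, the miR-378 names, the 4 most abundant tested members of each list and the 3 nearest patterns of each member. Other list members were named for their calls or, if untested, their low counts, with values known. Alternatives were other scalings and filters, DESeq2 1.42.0, other pseudocounts, an edgeR model with an arm-by-group interaction, a block for the replicate number, and fits without 1 library. Host genes came from GENCODE M21 on GRCm38. On simulated counts for the oviduct and tumor comparison 213 names were tested. edgeR called 20 of 20 names set to an 8-fold change, 5 of 20 set to 2-fold and 0 of 173 unchanged. Both groups were drawn from the oviduct means with a common dispersion, and as many names were raised as lowered. The simulation therefore did not probe the scaling and does not give the rate of false calls in the data. For hairpins, with 132 tested, limma called 17 of 18 set to a 16-fold change and 0 of 20 unchanged ones with both arms above 5%, but 12 of 94 unchanged ones with an arm at or under 5%. Figures used matplotlib 3.10.9 in Python 3.11.15.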

Additional observations from a re-analysis of the deposited data

How the results depend on the processing

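The precision of miR-107-3p and of the 5p strands was limited by counts of 33 or fewer per library. Apart from miR-103-3p, no member was called in any alternative. miR-103-3p was called with names without an arm left out (log2 1.01) and without tumor 2, its values lying between 0.36 and 1.05 with each library left out. With TMM factors from 3p names alone the log2 fold changes reversed to -0.60 for miR-22-3p, -0.11 for miR-103-3p, -0.13 for miR-16-5p, -0.88 for miR-27b-3p, -0.74 for miR-322-5p and -0.70 for miR-92a-3p, of which miR-27b-3p and miR-92a-3p were called. With upper-quartile factors miR-107-3p was at 0.11 and miR-378a-3p at 0.14. With library totals alone they were at 0.43 and 0.33, and miR-378d was at 0.13. With identical rows kept once they were at 0.024 and 0.039, and with names without an arm left out at 0.21 and 0.21. With no low-count filter miR-22-3p was at -0.042, miR-27b-3p at -0.28, miR-322-5p at -0.14 and miR-92a-3p at -0.12. At a mean of at least 10 CPM they were at -0.047, -0.21, -0.056 and -0.094. The log2 5p:3p ratio of miR-22 was 0.28 with a pseudocount of 5 and 0.20 by edgeR with an arm-by-group interaction, in which miR-103 could not be fitted. For these changes the cause was not tested.

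The number of names called lower was 26 with library totals alone and 92 with TMM factors from 3p names alone, against 58, and the number called higher was 98 with no low-count filter, against 61. Calls split into 72 higher and 26 lower with library totals and 42 and 92 with 3p factors, against 61 and 58.

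With each library left out in turn, the log2 fold change lay between -0.19 and 0.37 for miR-22-3p, -0.80 and 0.45 for miR-107-3p, -0.48 and 0.20 for miR-378a-3p, -0.41 and 0.24 for miR-27b-3p, -0.10 and 0.40 for miR-92a-3p, and -0.27 and 0.27 for miR-322-5p. The log2 strand ratio lay between -0.83 and 0.35 for miR-22 and -0.28 and 0.18 for miR-103. Differences in share lay between -0.00226 and 0.00477 percentage points for miR-107-3p and -0.0175 and 0.133 for miR-378a-3p. Differences in log2 ratio lay between -0.30 and 1.09 for miR-22-3p to miR-22-5p, -0.40 and 1.19 for miR-22-3p to miR-107-3p, -1.44 and 0.15 for miR-22-5p to miR-103-3p, -0.36 and 1.49 for miR-22-5p to miR-107-3p, -0.42 and 0.51 for miR-22-5p to miR-378a-3p, and -1.13 and 0.71 for miR-107-3p to miR-378a-3p.

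With the replicate number as a block, 108 names were called, against 119, no member changed its call, and miR-27b-3p was at -0.0034. Same-numbered oviducts and tumors did not deviate together (r of -0.07, 0.02 and -0.12 across microRNAs), so the numbers were not taken to pair the samples.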
